A study of Mus musculus with 8 samples.

Results

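The hair shaft and inner root sheath genes examined here are 35 genes chosen by name. They are keratins and keratin-associated proteins listed for the follicle, and a deiminase that acts on trichohyalin. Whether their RNA came from follicle cells was not tested. They comprise 8 keratins of the inner root sheath, 15 keratins of the hair shaft, Krt75 of the companion layer, Krt79 of the infundibulum and gland duct, 9 keratin-associated proteins and Padi3. They were read among 36799 genes and other targets on 8 Agilent mouse arrays that compared the back skin epidermis of newborn (P0) EED cKO and control mice, 4 of each, all C57BL/6 by their labels. In EED cKO mice (K14-Cre; EED flox/flox), Cre driven by the K14 promoter deletes Eed, which encodes a core subunit of the Polycomb complex PRC2, across skin epithelium and hair follicles. The labels call the other group control and name neither its alleles nor whether it carried Cre. Epidermis was peeled off after dispase and the cells were dissociated in trypsin, so the RNA came from all cells that left with the sheet. Each sample was hybridized with Universal Mouse Reference RNA in the other colour, and the values below are log2 ratios of epidermis over reference unless stated otherwise.

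The hair shaft is built in the centre of the follicle from matrix cells that fill with type I and type II hair keratins, which pair into filaments and are then embedded in cysteine-rich or glycine- and tyrosine-rich keratin-associated proteins. The inner root sheath surrounds and moulds the shaft with its own type I and type II keratins and with trichohyalin, which is modified by peptidylarginine deiminases such as Padi3 and crosslinked. PRC2 places the repressive histone mark H3K27me3 and holds many lineage genes silent in epidermal progenitors. At birth the follicles of mouse back skin are at mixed stages, and the most advanced have begun to make an inner root sheath and a shaft.

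To show the regulatory sequence of the genes that moved, the 250 bases before a RefSeq start (GRCm38.p6) of Krt84, Krt36 and Krt27 are given 5′ to 3′. For Krt36 that start lies inside the annotated gene span, downstream of its outermost start, and for the other genes shown it is the outermost one. Capitals mark the motifs that were searched on both strands. One is TATAAA, the box of many core promoters. Another is AGATAA, which GATA factors bind. The TCF/LEF factors bind CTTTGAA and the variant CTTTGAT. None of these motifs overlapped another in the windows shown. Krt84 and Krt27 were the 2 genes past both limits of the test described below. Among the tested members Krt36 had the strongest adjusted p after Krt84.
Krt84 (chr15:101532821-101533070, minus strand): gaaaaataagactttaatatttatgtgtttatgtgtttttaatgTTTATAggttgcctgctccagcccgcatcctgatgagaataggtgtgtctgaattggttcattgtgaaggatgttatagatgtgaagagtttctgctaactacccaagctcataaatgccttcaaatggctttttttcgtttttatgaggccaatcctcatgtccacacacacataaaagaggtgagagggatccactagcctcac
Krt36 (chr11:100105627-100105876, minus strand): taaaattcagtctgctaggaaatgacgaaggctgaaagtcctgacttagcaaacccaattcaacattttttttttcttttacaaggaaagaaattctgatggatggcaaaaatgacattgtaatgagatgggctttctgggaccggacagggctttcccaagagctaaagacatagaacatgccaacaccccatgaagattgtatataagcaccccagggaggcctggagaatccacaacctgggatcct
Krt27 (chr11:99351119-99351368, minus strand): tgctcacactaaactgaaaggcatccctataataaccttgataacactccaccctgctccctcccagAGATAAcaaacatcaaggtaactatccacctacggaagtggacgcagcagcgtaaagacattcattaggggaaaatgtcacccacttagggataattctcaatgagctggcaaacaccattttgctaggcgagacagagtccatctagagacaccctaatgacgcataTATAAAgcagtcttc
Krt27 held a TATAAA that began 15 bases and an AGATAA that began 183 bases before the start. Krt84 held a TATAAA on the opposite strand 206 bases before the start, and the Krt36 window, which is not that of the gene's outermost start, held none of the 4 motifs. Only exact matches were searched, so related forms, such as the TATATAA in the Krt36 window, were not counted.

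The windows of 4 type I hair keratin genes are shown for a stretch they share at the upstream end, where each has CTTTGAA on the same strand.
Krt31 (chr11:100050742-100050801, minus strand): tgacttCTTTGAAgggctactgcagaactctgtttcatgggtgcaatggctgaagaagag
Krt34 (chr11:100041745-100041804, minus strand): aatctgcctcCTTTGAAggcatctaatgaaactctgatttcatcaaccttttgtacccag
Krt33b (chr11:100030059-100030118, minus strand): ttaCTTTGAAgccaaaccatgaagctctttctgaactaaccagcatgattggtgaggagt
Krt32 (chr11:100088460-100088519, minus strand): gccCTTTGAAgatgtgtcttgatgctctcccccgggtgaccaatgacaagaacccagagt
The motif began 244, 240, 247 and 247 bases before the start of Krt31, Krt34, Krt33b and Krt32. These 4 genes lie in 1 cluster and are related by duplication, so that their shared letters are not independent.

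Besides Krt27, 3 keratin genes of the inner root sheath held AGATAA, and 60 bases around it are shown for them because Gata3 is a regulator of that layer.
Krt25 (chr11:99323111-99323170, minus strand): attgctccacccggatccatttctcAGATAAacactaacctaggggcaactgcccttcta
Krt73 (chr15:101802508-101802567, minus strand): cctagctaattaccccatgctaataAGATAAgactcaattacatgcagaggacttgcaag
Krt71 (chr15:101743288-101743347, minus strand): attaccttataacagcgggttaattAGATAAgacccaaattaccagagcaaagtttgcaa
AGATAA was present on either strand in 4 of 7 inner root sheath keratin windows, in 0 of 9 hair shaft keratin windows and in 1 of 8 windows of keratin-associated proteins. Over all members it was in 6 of 27 windows, against 11.2% of all 32851 windows of the same length. TATAAA was present in 18 of the 27 member windows against 13.6% of all, and between 25 and 35 bases before the start on the same strand in 10 of 27 against 1.75%, a band chosen with the positions in the members known. CTTTGAA was present in 10 of 27 windows against 5.14%, and CTTTGAT in 1 (Krtap3-3) against 3.73%. Neighbouring members, such as Krt25 and Krt27 on chr11 and Krt71 and Krt73 on chr15, are related genes. Their windows are therefore not independent for any of these motifs. The windows ran from 250 bases before to 50 bases after the start. Krt33a, Krt35, Krt74, Krt81, Krt83, Krt85, Krt86 and Krtap7-1 were not analysed for motifs here.

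**Figure D1:**
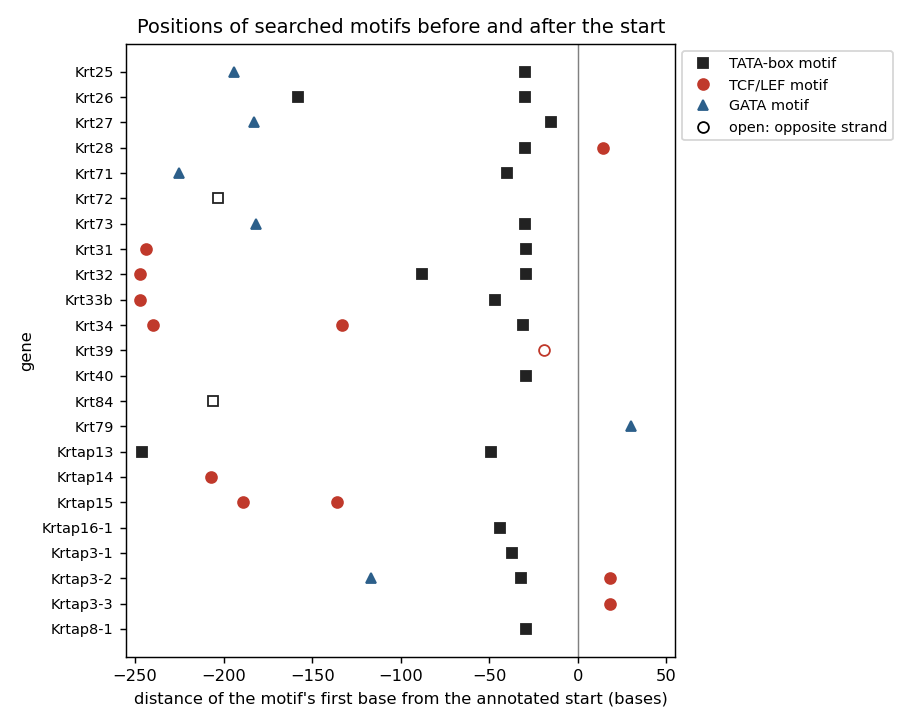
Positions of the searched motifs (squares TATAAA, circles CTTTGAA, triangles AGATAA; open symbols, opposite strand) in the member windows that hold any of them, as the distance in bases from the annotated start (x axis). TATAAA gathers near 30 bases before the start, and CTTTGAA stands at the far left of the windows of Krt31, Krt32, Krt33b and Krt34.

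Eed itself checked the labels. It read -1.80 ± 0.17 (mean log2 ratio ± SD, n = 4) in the EED cKO and -0.35 ± 0.13 (n = 4) in the control epidermis, a difference of -1.46 (SE 0.09, limma adjusted p = 2.13e-05), and every EED cKO array lay below every control array. Epidermis could be read on all arrays, with 9 of the 9 interfollicular markers on the array well above background throughout. In the sample channel 51.5% to 65.5% of probes exceeded background by the scanner's flag, which limits what could be measured. Arrays of 1 genotype correlated at r = 0.94 to 0.99 over all tested targets, which are not independent replicates. All 8 arrays sat on 1 slide, EED cKO in one row and control in the other, so row and genotype cannot be told apart. RNA of 4 Y-linked genes was high on control replicates 2 and 3 (mean log2 ratios 1.19 and 1.02) and low on all other arrays (-1.51 to -1.31), so the sexes were not balanced between the groups. Many counts are given with and without these controls, and most single genes with them only.

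Of the 35 genes, 33 had a probe, and Krt83 and Krt85 were not analysed here. Of those, 20 passed the filter for testing (above background by the scanner's flag on 3 or 4 arrays of either genotype), and 13 were above background on all 8 arrays. A further 7 (Krt25, Krt32, Krt75, Krtap13, Krtap16-1, Krtap3-1 and Krtap3-3) were above background on some arrays only. The other 6 (Krt26, Krt39, Krt40, Krt74, Krtap14 and Krtap7-1) were well above background on none, which bounds their level but does not show their absence. The filter favours genes that are high in one genotype, so shares of the 20 are not shares of all members. The reference RNA was above background on all 8 arrays for 10 of the 20 and on 0 arrays for Krt33b. Where it was not above background, the ratio rests on a reference signal at background.

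Among the 20 tested genes, 2 changed by the rule of this comparison, Krt27 and Krt84, both higher in EED cKO epidermis, and 0 were lower. The rule asked for an adjusted p under 0.05 together with a change of 2-fold or more. Over all 23139 tested targets, 1.2% changed by this rule, 1.1% higher and 0.0994% lower (255 and 23 targets, or 156 and 56 after median centring in place of loess). With the adjusted p alone, 6 members were higher (Krt27, Krt84, Krt36, Krt72, Krt31 and Padi3) and 0 lower, where 11.8% and 9.93% of all targets passed. The same shares stand beside every later count of this fit for genes that rose or fell by the adjusted p alone. For counts from other fits the shares of all targets by the adjusted p alone are not given. The 2 groups of 4 arrays did not overlap for 5 members, all higher (Krt31, Krt34, Krt36, Krt73 and Krt84), beside 9.67% of all targets higher and 7.51% lower. The fitted difference was positive for 13 and negative for 7 of the 20, with a median of 0.14 on the log2 scale against 0.02 for all tested targets. In whole epidermis, more cells of a type and more RNA per cell cannot be told apart.

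**Figure D2:**
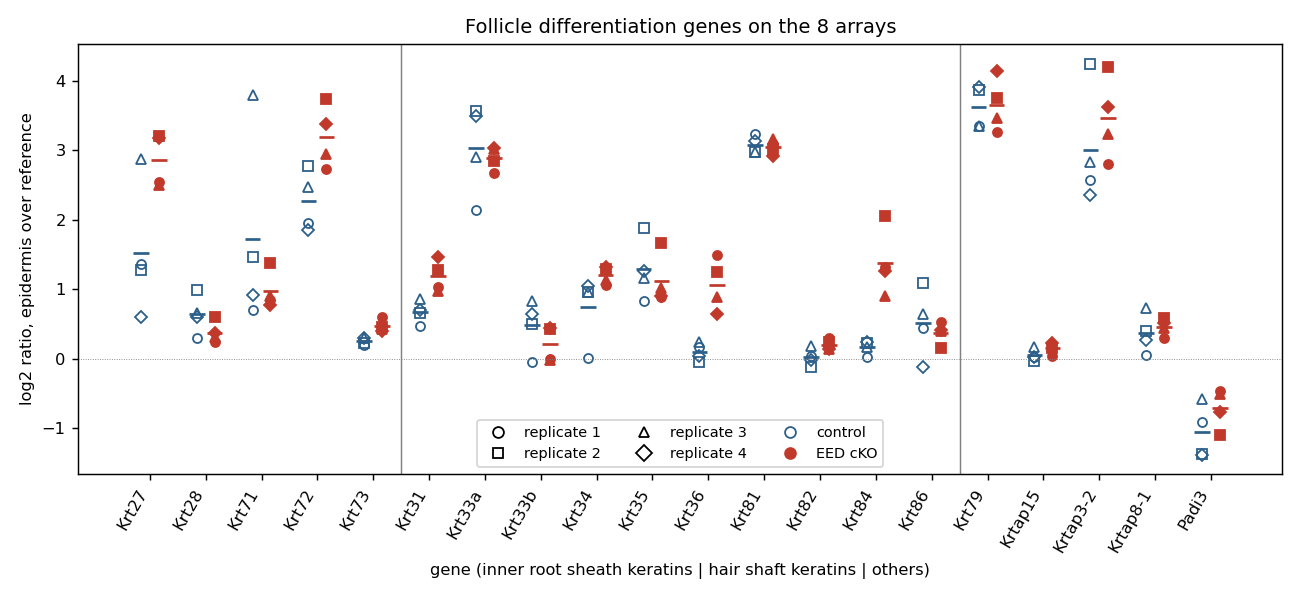
Log2 ratio of epidermis over reference (y axis) of the 20 tested genes on each array, control in open blue and EED cKO in filled red symbols, with the symbol shape giving the replicate number and short lines the group means. Krt84 and Krt36 separate the genotypes, whereas Krt71 and Krt27 are set apart by control replicate 3 at 3.80 and 2.87.

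Krt84, listed here with the type II hair shaft keratins, gave the clearest difference. Its log2 ratios were 1.32, 2.05, 0.90 and 1.26 in EED cKO replicates 1 to 4 and 0.02, 0.22, 0.16 and 0.24 in control replicates 1 to 4. The lowest EED cKO array was thus well above the highest control array. The fitted difference was 1.22 (SE 0.17, limma adjusted p = 0.00179), or 2.33-fold, and the exact two-sided permutation p was 0.0286, the smallest that 4 against 4 arrays allow. It was 1.02 among the Cy3-labelled and 1.43 among the Cy5-labelled samples. The reference RNA was above background for Krt84 on 2 of 8 arrays, and the size of the difference moved with the processing. It was up to 2.29 in the deposited log2 ratios, which differ in both background correction and normalization.

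Krt36, a type I hair keratin, had log2 ratios of 1.49, 1.25, 0.88 and 0.64 in EED cKO and 0.16, -0.06, 0.23 and 0.04 in control epidermis. Again no control array reached the lowest EED cKO array. The difference was 0.97 (SE 0.15, adjusted p = 0.00287), just under 2-fold at 1.96-fold. Its size moved with the processing, from 0.59 to 2.22 over 26 other settings, and it passed both limits under 7 of them. A second, dimmer probe of Krt36 was above background on 2 EED cKO arrays and 0 control arrays, and its mean ratio differed by 0.20.

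Krt31, a type I keratin of the hair cortex, ranked with them at a smaller size. Its values were 1.03, 1.27, 0.98 and 1.46 against 0.48, 0.66, 0.85 and 0.69, without overlap, for a difference of 0.51 (SE 0.11, adjusted p = 0.0102). Krt34, its close neighbour in the type I cluster, read 1.06, 1.29, 1.13 and 1.31 in EED cKO and 0.01, 0.95, 0.96 and 1.05 in control. The lowest EED cKO array and the highest control array nearly met, and control replicate 1 stood far below the rest. The difference of 0.46 (SE 0.17) had an adjusted p of 0.0883 in limma, and of 0.0468 with the replicate number as a block.

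The other hair shaft keratins did not pass the test. Krt35, a type I keratin of the matrix and cuticle, read 0.89, 1.67, 1.02 and 0.90 in EED cKO and 0.83, 1.88, 1.16 and 1.27 in control, with replicate 2 highest in both. Krt33a had ratios of 2.67 to 3.03 in EED cKO and 2.14 to 3.57 in control, and Krt33b of -0.03 to 0.44 and -0.05 to 0.83. Krt81, a type II cortex keratin, varied little, at 2.92 to 3.16 and 2.97 to 3.24 (difference -0.03, SE 0.08). Krt86 ranged from 0.15 to 0.53 in EED cKO and from -0.12 to 1.09 in control. Krt33a and Krt33b, and Krt81 and Krt86, are near-identical in sequence and their probes may share RNA, so these values are uncertain as to gene.

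Krt82, a type II cuticle keratin, was well above background on 4 of 4 EED cKO and 0 of 4 control arrays. Its log2 ratios were 0.30, 0.24, 0.14 and 0.13 against 0.04, -0.13, 0.19 and -0.02, and the groups overlapped. It did not pass the test (limma adjusted p = 0.126 for the ratio), and it entered the test through the EED cKO arrays alone. The EED cKO mean of its sample signal exceeded control by at least 1.13-fold, a bound taken against the higher of the probe's own control signal and the lowest signal above background. In all, 3 of the 10 tested hair shaft keratins rose, 0 fell and 7 did not pass, with a median difference of 0.07. Along the type I cluster, where the untested Krt32 lies between Krt31 and Krt35, Krt34, Krt31, Krt35 and Krt36 had fitted differences of 0.46, 0.51, -0.17 and 0.97, so adjacent genes did not share 1 value.

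**Figure D3:**
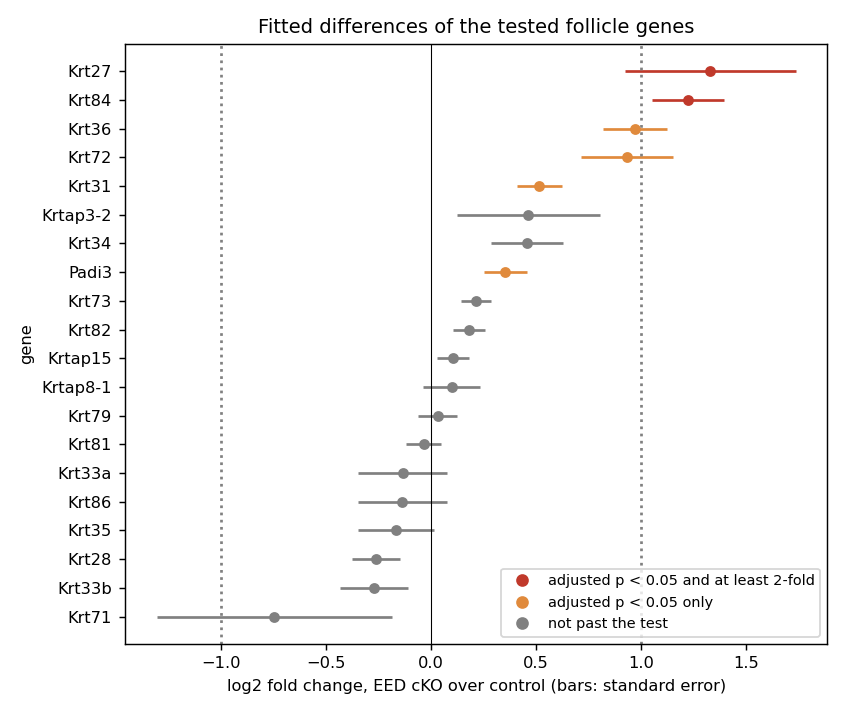
Fitted log2 fold change, EED cKO over control (x axis), of the 20 tested genes with its standard error as a bar. Red marks an adjusted p below 0.05 with at least 2-fold, orange an adjusted p below 0.05 only, and grey genes that did not pass; dotted lines mark 2-fold. Krt27 and Krt84 lie beyond 2-fold, and Krt71 has the widest bar (SE 0.56).

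Among the inner root sheath keratins, 2 of 5 tested genes rose, 0 fell and 3 did not pass. Krt27, a type I keratin of the inner root sheath, read 2.54, 3.20, 2.50 and 3.18 in EED cKO and 1.36, 1.28, 2.87 and 0.59 in control epidermis. Control replicate 3 reached into the EED cKO range, and the other 3 controls were lower than every EED cKO array. The difference was 1.33 (SE 0.41, adjusted p = 0.0439), or 2.51-fold, and 0.40 among the Cy3-labelled against 2.25 among the Cy5-labelled samples. Without control replicate 3 it was 1.82 (adjusted p = 0.00162). Leaving out any other single array put the adjusted p above 0.05, at 0.0532 (without EED cKO replicate 1) to 0.140 (without EED cKO replicate 4), with differences of 1.01 to 1.52.

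Krt72, a type II keratin of the inner root sheath cuticle, read 2.73, 3.73, 2.95 and 3.38 against 1.95, 2.78, 2.48 and 1.85. Only the lowest EED cKO and the highest control array crossed. The difference was 0.93 (SE 0.22, adjusted p = 0.0159), or 1.91-fold. Krt73, also of the inner root sheath cuticle, read 0.60, 0.46, 0.42 and 0.40 against 0.20, 0.23, 0.30 and 0.29, a small difference without overlap (0.21, SE 0.07, adjusted p = 0.0588, exact permutation p = 0.0286).

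Krt71, a type II keratin found through all layers of the inner root sheath, did not pass the test. Its ratios were 0.84, 1.37, 0.90 and 0.77 in EED cKO and 0.70, 1.47, 3.80 and 0.91 in control epidermis. All 7 other arrays lay between 0.70 and 1.47, and control replicate 3 stood alone at 3.80. The difference of -0.75 (SE 0.56, adjusted p = 0.374) was -0.0020 without that array. Krt28 read 0.24, 0.59, 0.30 and 0.36 against 0.30, 0.99, 0.66 and 0.60, a difference of -0.26 (SE 0.11, adjusted p = 0.126, and 0.0419 with the replicate number as a block). Krt25, on 2 arrays of each genotype above background, was highest on EED cKO replicate 2 and control replicate 3, both at 0.81, and was not tested.

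**Figure D4:**
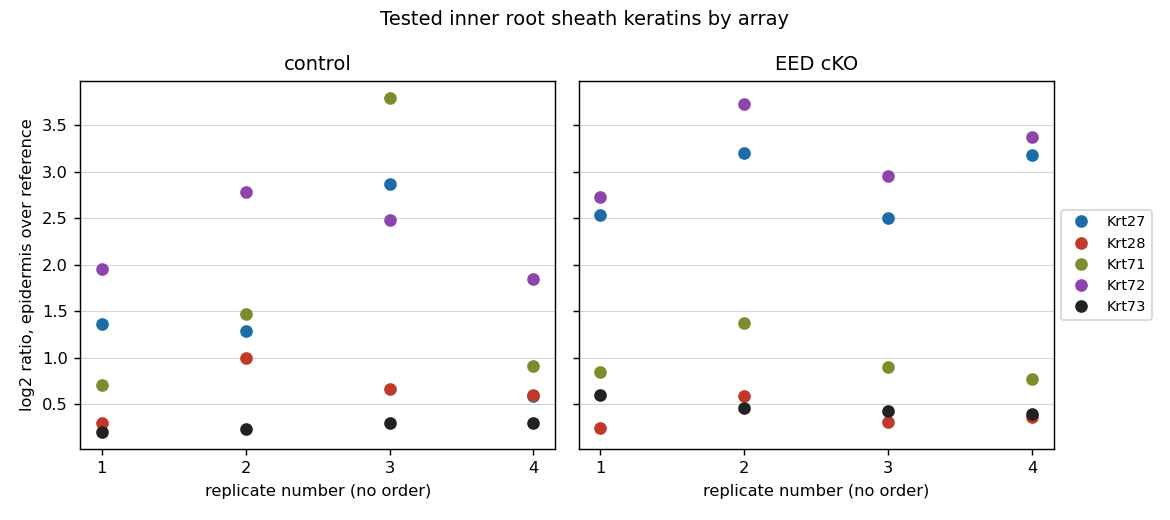
Log2 ratio of epidermis over reference (y axis) of the 5 tested inner root sheath keratins on each control (left) and EED cKO (right) array, by replicate number, which has no order. Control replicate 3 holds the highest Krt71 (3.80) and the highest control Krt27 (2.87), while its Krt72 (2.48) lies below that of control replicate 2 (2.78).

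At the median, the members varied more among the arrays of a genotype than all tested targets did. This spread includes dye and measurement as well as animals. The median SD of the 20 tested genes was 0.35 among controls and 0.24 among EED cKO arrays, against 0.16 and 0.14 for all tested targets. Control replicate 3 was the highest control for 10 of the 20, and control replicate 1 the lowest for 10. The mean of the 5 inner root sheath keratins was 1.39, 1.87, 1.42 and 1.62 in EED cKO and 0.90, 1.35, 2.02 and 0.85 in control, so the highest single value was that of control replicate 3. The mean of the 10 hair shaft keratins was 1.24, 1.42, 1.16 and 1.25 against 0.73, 1.17, 1.09 and 1.04.

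Without control replicate 3, 3 members changed (Krt27, Krt72 and Krt84) and 7 were higher by the adjusted p. Over all targets, 290 changed as higher and 27 as lower in that fit, beside 255 and 23 with all arrays. Without both controls that carried Y-linked RNA, 4 changed (Krt27, Krt72, Krt84 and Krtap3-2) and 8 were higher by the adjusted p, while Krt71 turned to 0.16. That fit left 2 control arrays, and over all targets 313 changed as higher and 20 as lower. The part of sex in these values was not tested otherwise.

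Keratin-associated proteins fill the matrix between the keratin filaments late in shaft differentiation. Of the 9 members, 3 were tested and 0 passed the test in either direction. Krtap3-2, of a cysteine-rich family, was well above background on all 8 arrays and read 2.80, 4.21, 3.23 and 3.62 in EED cKO and 2.57, 4.25, 2.82 and 2.35 in control (difference 0.46, SE 0.34, adjusted p = 0.364). Replicate 2 was the highest of both genotypes. In the fit without both controls with Y-linked RNA the difference was 1.00 and passed both limits. Krtap8-1, of a glycine- and tyrosine-rich family, ranged from 0.29 to 0.59 and from 0.06 to 0.73, and Krtap15 from 0.04 to 0.22 and from -0.03 to 0.17. Krtap3-1, Krtap3-3 and Krtap16-1 each had their highest control value on replicate 3 (0.64, 0.65 and 0.81).

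Of 42 other Krtap genes on the array, 22 were tested, 8 rose, 0 fell and 14 did not pass. Krtap17-1 read 4.43, 4.94, 5.55 and 4.88 in EED cKO and 1.35, 2.70, 3.19 and 1.95 in control, a difference of 2.65 (SE 0.37, adjusted p = 0.00189). Krtap10-4 differed by 1.46 (SE 0.14), Krtap5-3 by 0.85 and Krtap19-4 by 0.78, each without overlap of the groups except Krtap19-4. The median difference of the 22 was 0.09. Genes of this family are closely related and a probe may read more than 1 of them.

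Padi3, the deiminase that modifies trichohyalin, read -0.47, -1.09, -0.51 and -0.76 in EED cKO and -0.91, -1.38, -0.58 and -1.38 in control. The groups overlapped, and the samples labelled with Cy5 (replicates 2 and 4) were the lower ones in both. With dye as a term in the fit the difference was 0.35 (SE 0.10, adjusted p = 0.0356), and without that term the adjusted p was 0.298. Krt79, which marks the infundibulum and gland ducts, ranged from 3.26 to 4.14 and from 3.35 to 3.91 (difference 0.03, SE 0.09, adjusted p = 0.841). Under 1 of 26 other settings Krt79 passed the test as higher. Krt75 of the companion layer was above background on 1 EED cKO array.

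**Figure D5:**
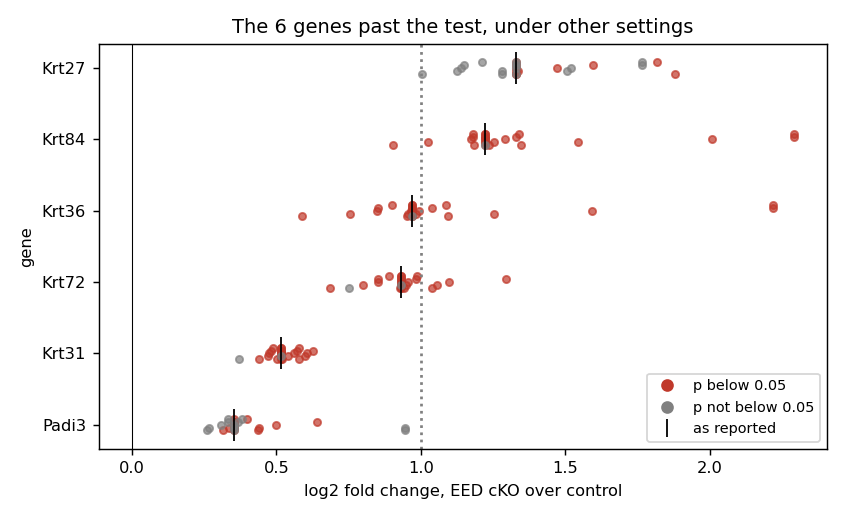
Log2 fold change, EED cKO over control (x axis), of the 6 genes past an adjusted p of 0.05, under each of 26 other settings (points; red, p below 0.05 under that setting, adjusted in all settings but one; grey, not below) and as reported (black bar); the dotted line marks 2-fold. Krt84 stays between 0.90 and 2.29, whereas Krt27 is grey in 15 settings and Padi3 in 12.

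Other genes of the shaft and inner root sheath were measured from a list, of which 12 of 14 were tested, 5 rose, 0 fell and 7 did not pass. With the replicate number as a block, 7 rose. Crym, a thyroid hormone-binding crystallin made in follicles, read 2.89, 3.85, 3.19 and 3.48 in EED cKO and 0.18, 0.75, 1.21 and 0.50 in control, a difference of 2.69 (SE 0.23, adjusted p = 0.000137). Tchh, which encodes trichohyalin, differed by 0.94 (SE 0.28, adjusted p = 0.0391), with control replicate 1 at 2.73 and the other controls at 3.68 to 4.26 against 4.52 to 4.84 in EED cKO. Cst6, a cystatin, and S100a3, a calcium-binding protein of the hair cuticle, rose by 0.69 and 0.53, and Ctsl, a lysosomal protease, by 0.52. The calls were lost under 14 of 26 other settings for Tchh and 10 of 26 for S100a3. Dsg4, the desmosomal cadherin of the shaft, was above background on 0 arrays.

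Among 20 transcription factors of the follicle, all tested, 6 rose, 2 fell and 12 did not pass. Over all targets 11.8% rose and 9.93% fell, so the falls are near the share of all targets. With the replicate number as a block 9 rose, and 8 rose without both controls that carried Y-linked RNA. Trps1, a GATA-type repressor, differed by 1.19 (SE 0.10, adjusted p = 0.000118), Foxq1, which is needed for the hair medulla, by 0.85, and Runx1 by 0.74. Lef1, the factor that reads Wnt signals in the matrix and hair cortex, fell by 0.76 (SE 0.13, adjusted p = 0.00439), from 0.60 to 1.40 in control to 0.12 to 0.42 in EED cKO. Hoxc13 and Foxn1, which act on hair keratin genes, gave 0.21 (adjusted p = 0.167) and -0.28 (adjusted p = 0.30). Gata3, the inner root sheath regulator, fell by 0.52 (adjusted p = 0.0207). Hoxc13, Foxn1, Gata3 and Ctsl were picked out after their values were seen.

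Of 13 genes of the outer root sheath, placode and follicle stem cells, 2 rose (Nfatc1 0.70 and Sox9 0.52, both counted above as transcription factors), 2 fell and 9 did not pass. The share of 15.4% in each direction stood beside 11.8% and 9.93% of all targets. With the block 3 rose and 4 fell, and without both controls that carried Y-linked RNA 3 rose and 1 fell. Shh, the placode and matrix ligand, read 0.46, 0.75, 0.80 and 0.82 in EED cKO and 1.14, 1.97, 1.11 and 1.76 in control, a difference of -0.79 (SE 0.13, adjusted p = 0.00368). Lrig1, of the upper follicle, fell by 0.47 (adjusted p = 0.0394), a call lost under 16 of 26 other settings. Of 26 tested keratins outside the follicle list, 14 rose (12 without both controls with Y-linked RNA), 0 fell and 12 did not pass, led by Krt6b (3.39, SE 0.14), Krt7 (3.00), Krt6a (2.73) and Krt12 (2.52). Krt76, among the 14, entered the test through the EED cKO arrays alone. Krt8, Krt18 and Krt20, also among them, are counted again below as Merkel cell markers. The median difference of the 26 was 0.36 beside 0.14 for the 20 follicle members. Whether the 2 lists differ was not tested.

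Markers of other cells of the follicle and skin moved on the same arrays, and their part in the member values was not tested. Of 8 tested dermal papilla markers, 5 rose (4 without both controls with Y-linked RNA) and 0 fell (Wif1 0.90, Lepr 0.75 and Bmp4 0.58, with Lepr at -0.03 when the median over its probes was used). Also among those that rose were Sox2 (0.41) and Crabp1 (0.35), named after their values were seen. Sox2 is on the Merkel cell list as well and is counted in both. It entered the test through the EED cKO arrays alone, which sets part of the papilla count. The log2 of the summed signal of the papilla list was 12.61 to 13.06 in EED cKO and 11.85 to 12.56 in control epidermis, while Hey2 and Corin were above background on 0 arrays. All 6 tested Merkel cell markers rose, led by Krt20 (1.12), Atoh1 (0.88) and Isl1 (0.83). Atoh1, Isl1 and Sox2 entered the test through the EED cKO arrays alone, which sets part of that count. The list had summed signals of 10.99 to 11.27 and 10.35 to 10.73. Of 4 tested endothelial markers 2 rose (Pecam1 0.89 and Kdr 0.62; summed signals 12.22 to 12.61 and 11.50 to 12.09), with Cdh5 and Tek above background on 0 arrays.

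Of 9 tested dermal fibroblast markers, 2 rose (Lum 0.50 and Fbn1 0.30) and Postn fell by 0.98. Fbn1, tested through the EED cKO arrays alone, lost its call under 18 of 25 other settings, and 0 rose without both controls with Y-linked RNA. The list had summed signals of 15.06 to 15.12 and 15.10 to 15.55 and Dpt above background on 0 arrays. Melanocytes supply pigment to the shaft, and of their 9 tested markers 0 rose and Sox10 fell by 0.50 (summed signals 14.57 to 14.87 and 14.36 to 14.92). The call of Sox10 was lost under 15 of 26 other settings. With the block 2 fell, and without both controls with Y-linked RNA 0 fell. Sebaceous gland markers gave 2 of 7 higher (Pparg 0.56 and Plin2 0.53; summed signals 11.19 to 11.24 and 10.83 to 10.97), and immune cell markers 2 of 7 (Cd3e 0.54 and Cd74 0.46; 12.16 to 12.43 and 12.01 to 12.28). Cd74 lost its call under 17 of 26 settings, among them the fit without both controls with Y-linked RNA. None of 3 muscle markers passed. The erythroid markers Hba-a1 and Hbb-bt differed by 1.21 and 1.22 without passing (adjusted p = 0.116 and 0.145), and both passed without EED cKO replicate 1 (median 1.73) or control replicate 1 (median 1.76). The summed erythroid signal ran from 9.75 to 12.15 in EED cKO and from 8.80 to 11.88 in control. Of 9 interfollicular epidermis markers, 0 rose and 2 fell, Itga6 by 0.74 and Itgb4 by 0.51 (1 rose and 1 fell without both controls with Y-linked RNA), with summed signals of 18.73 to 19.06 and 18.64 to 19.17.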

How the data were processed

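Epidermal RNA of 4 EED cKO and 4 control newborn mice was hybridized together with a commercial mouse reference RNA. In each genotype 2 of the 4 arrays had the dyes exchanged. Groups, replicate numbers and dyes came from the labels. The authors deposited for each array the Agilent Feature Extraction 12.0.1.1 output (per the submitters' processing notes), with unnormalized spot and local background intensity, background flags and the software's own log10 ratio of the channels. The authors' deposited table of log2 ratios equalled the log2 ratio of sample over reference of the processed signals within 1e-05 for 100% of single-spot probes, without centring.

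Median spot intensities were background-corrected (normexp, offset 50), control spots and outlier flags left out, arrays normalized by loess, ratios turned to sample over reference and spots of a probe averaged. An offset and normexp pull ratios of dim probes towards 0. Probes were named by RefSeq accession (28026 of 29796 matched, GRCm38.p6), and the brightest probe stood for a gene. The 23139 targets flagged well above background on 3 or 4 arrays of either genotype entered limma 3.58.1 under R 4.3.3 (lmFit and eBayes, genotype plus dye, Benjamini-Hochberg over all of them, 19 missing values filled with the group mean). Changed means an adjusted p below 0.05 and at least 2-fold, and rose or fell an adjusted p below 0.05. The number of arrays limits the precision. On simulated arrays, 200 and 195 of 200 genes changed 3-fold among 23139 were recovered in 2 runs with 0 false calls. The largest member change was smaller, at 2.51-fold for Krt27, so recovery at the sizes seen in the members was not tested.

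Members and lists were chosen with earlier results of these data known. From each further list at most 4 genes with an adjusted p below 0.05 and the largest differences are named (3 for cell markers). Arrays of the same replicate number, which also marks dye, deviated together (r = 0.49, 0.68, 0.33 and 0.36 across targets; 0.13 and 0.46 after removal of the dye), so a fit with the number as a block is given where it changed a call. The labels call the samples biological replicates. Alternatives changed the background correction, normalization, filter, probe choice, design, test or array set. The fit without both controls with Y-linked RNA was chosen after seeing the data.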

Additional observations from a re-analysis of the deposited data

Results flagged for a closer look

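In groups of 4 arrays, 2 of 40 tested groups held an array that stood apart from the other 3, and chance alone flags about 1 in 20. For Krt34, control replicate 1 had a log2 ratio of 0.0123 while the other controls lay between 0.95 and 1.05. For Krt35, EED cKO replicate 2 had a log2 ratio of 1.67 while the other EED cKO arrays lay between 0.89 and 1.02.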

How the results depend on the processing

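The count of changed members, 2 and all higher, became 0 with median centring and with the methods' t-test after Benjamini-Hochberg adjustment, 1 with no filter on dim probes, the median over probes, no dye term or the sample channel alone, 4 without both controls that carried Y-linked RNA, and 6 with no fold limit. It was 1 to 3 when single arrays were left out, with 1 without EED cKO replicate 2, control replicate 1 or control replicate 4, and 3 without control replicate 3. An equal count did not always mean the same genes. Of the 26 settings, Krt84 passed both limits under 24, Krt27 under 11, Krt36 under 7, Krt72 under 4 and Krtap3-2 under 1. Median centring lowered the members past the adjusted p to 2, and the methods' t-test with adjustment lowered them to 0. The methods' t-test at an unadjusted p gave 2 changed members. A fall past the adjusted p appeared for 1 member each with the software's log ratio and the authors' table (Krt35, -0.64) and with the replicate block (Krt28). Among the members the block changed the calls of Krt28 and Krt34 alone and left the count of changed members at 2. The median difference of the members was 0.44 with the software's log ratio and the authors' table.

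Over all targets, 278 changed, and 499 with a normexp offset of 10, 699 with the software's log ratio, 698 with the authors' table, 175 with the adjusted t-test and 5025 with no fold limit.

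Fitted differences of genes that did not pass turned sign in some settings. Without background correction, Krt33a became 0.0036 and Krt81 0.022, and with an offset of 10 they became 0.016 and 0.066. The software's log ratio and the authors' table gave Krt33a 0.52, Krt81 0.11, Krt79 -0.018 and Krtap3-2 -0.38. Krt79 was -0.0060 with array weights. Over the 26 settings its largest difference was 0.92, and it passed the test as higher under 1 of them. With single arrays left out, Krt79 ranged from -0.049 to 0.10 (below 0 without EED cKO replicate 3 or 4), Krt35 from -0.29 to 0.011 (above 0 without EED cKO replicate 4), Krtap8-1 from -0.011 to 0.26 (below 0 without control replicate 1), Krt81 from -0.099 to 0.0088 (above 0 without control replicate 1 or 4) and Krt86 from -0.37 to 0.12 (above 0 without control replicate 2). Without both controls with Y-linked RNA, Krt33a was 0.073, Krt35 0.070, Krt71 0.16 and Krt86 0.21. Lepr was -0.029 with the median over probes. The causes were not tested.

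Krt84 and Krt36 missed the threshold under 1 of 26 settings, the adjusted t-test (0.0539 and 0.0552), Krt31 and Krt72 under 2, Padi3 under 12 and Krt27 under 15. Eed kept its direction and call in all 26. With dim probes near background, sizes of difference depend on the background correction.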
